A study of Mus musculus with 10 samples.

Results

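The genes described here are those for the proteins of the cytoplasmic ribosome, chosen by their symbols (Rpl or Rps followed by a number, with Rplp0, Rplp1, Rplp2 and Rpsa, and without pseudogenes named -ps). The rule found 86 of the 34573 rows of the count table, 52 for the large subunit and 34 for the small subunit. RNA was sequenced from naive T cells (TCRb+ CD25- CD44- CD62L hi) sorted from the spleen of mice aged 6 weeks, in 10 libraries. Wild-type (WT) mice were the source of CD4 and of CD8 cells, called WT CD4 and WT CD8 here, and OB11/OB11 homozygous mice gave cells sorted as CD4hi, as CD4+CD8+ (DP) and as CD4lo, with 2 libraries in each of the 5 groups. The title of the study concerns an autoregulatory loop of ThPOK, the transcription factor encoded by Zbtb7b that maintains the CD4 lineage; the labels do not say what OB11 changes, whether animals were pooled, or whether the paired libraries of a group came from separate animals, so p-values measure the spread between libraries, which may be technical.

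A ribosome joins ribosomal RNA to one copy of each of its proteins, apart from the stalk proteins Rplp1 and Rplp2, and cells make these proteins in balanced amounts. Naive T cells are small resting cells whose ribosome content rises when an antigen activates them. Most ribosomal protein mRNAs start with a C followed by a run of pyrimidines (the 5′ terminal oligopyrimidine motif), through which mTOR signalling controls their translation, and the mouse genome carries many processed pseudogenes copied from them.

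Of the 86 rows, 81 passed the filter on low counts, 49 of the large and 32 of the small subunit, all annotated as protein-coding genes. The other 5 were at or near 0 in every group, with mean levels from 0.0608 to 0.980 CPM (counts scaled to library size): Rpl3l, Rpl10l and Rpl39l, the tissue-restricted copies of Rpl3, Rpl10 and Rpl39, and Rps12l1 and Rps4y2, which GENCODE annotates as processed pseudogenes. The 81 tested genes lay on 19 chromosomes, with at most 14 on any of them, and 30 held a total of 58 genes for small nucleolar RNAs. Their transcripts were short, with a median length of 761 bases and a range from 345 to 3706 bases.

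Of the 81 tested genes, 61 were found by symbol in RefSeq's table of start sites (GRCm38.p6). A C followed by at least 5 further pyrimidines lay within 15 bases of an annotated start in 35 of the 61 (57.4%), against 25.5% of the 27025 genes in the table. The letters CTTCCG, searched on both strands from 250 bases before to 50 bases after the start, were present in 42 of the 61 (68.9%), against 18.8% of all genes. The 2 searches overlap where a pyrimidine run ends in CTTCC before a G, as in the Rpl34 window. The windows below run from 15 bases before the start into the transcript, 5′ to 3′, with the pyrimidine run in capitals, and were chosen because the comparisons turn on these genes: Rps27, Rpl4 and Rpl13a were among the genes furthest above WT CD4 cells, the Rpl34 row fell with a run at the start (the downstream of 2 annotated starts is shown), and Rps3a and Rps7 fell without one.
Rps27 (chr3:90213634-90213663, minus strand): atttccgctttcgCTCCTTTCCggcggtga
Rpl4 (chr9:64173372-64173401, plus strand): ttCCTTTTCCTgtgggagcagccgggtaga
Rpl13a (chr7:45128731-45128760, minus strand): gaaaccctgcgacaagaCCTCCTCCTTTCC
Rpl34 (chr3:130730323-130730352, minus strand): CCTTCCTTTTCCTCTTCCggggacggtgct
Rps3a (chr3:86142654-86142683, minus strand): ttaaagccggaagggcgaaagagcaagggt
Rps7 (chr12:28635939-28635968, minus strand): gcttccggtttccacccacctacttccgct

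Library totals ran from 5055956 to 7417789 counts, and the 86 rows took 5.72% to 7.37% of them. Zbtb7b stood at 145 and 158 CPM in WT CD4 and at 28.0 CPM or less in every other library, and the T cell marker list summed to between 1767 and 2232 CPM throughout. A pair of libraries stood apart: WT CD4 replicate 2 and CD4hi replicate 1 had counts in 25272 and 23545 rows, against 15532 to 17345 in the other 8. These libraries also had the lowest shares of ribosomal protein counts, 5.72% and 5.76%, so median fold changes against WT CD4 are given with and without them. The 4 CD4lo and WT CD4 libraries have titles with an added L that the labels do not explain. Libraries alike in that mark meet in 4 comparisons, CD4lo with WT CD4 and those among WT CD8, CD4hi and DP; in the other 6 comparisons the mark and the sorted group cannot be told apart. Differences in this text are from 1 edgeR quasi-likelihood model of all 10 libraries, "called" means an adjusted p under 0.05 over all 12193 genes tested, and the first group of a comparison is the one said to be higher or lower.

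Ribosomal protein mRNA was lowest in WT CD4 cells. The summed level of the 86 rows was 60253 and 55219 CPM in WT CD4, 61006 and 64918 CPM in CD4hi, 64648 and 68226 CPM in DP, 69881 and 69737 CPM in WT CD8, and 66761 and 74000 CPM in CD4lo. No library of another group fell as low as either WT CD4 library, but CD4hi replicate 1 exceeded WT CD4 replicate 1 by less than the gap between the WT CD4 libraries. By group mean the sums stood 9.05% (CD4hi), 15.1% (DP), 20.9% (WT CD8) and 21.9% (CD4lo) above WT CD4. Both subunits were lowest in WT CD4, with 35958 ± 2218 CPM (SD, n = 2) for the large and 21778 ± 1341 CPM for the small subunit. By mean the large subunit was highest in CD4lo (44506 ± 3065 CPM, against 43667 ± 66.5 CPM in WT CD8) and the small subunit in WT CD8 (26141 ± 168 CPM, against 25874 ± 2053 CPM in CD4lo), differences smaller than the spread between the CD4lo libraries. In bulk RNA a shift in the mix of cells and a shift in mRNA per cell cannot be told apart. Marker lists of other cell types and states also differed between groups, and none of their measured genes was at 0 in all libraries. The 6 proliferation markers summed to between 41.9 and 52.5 CPM in WT CD4, 62.6 and 63.2 CPM in WT CD8, 91.8 and 119 CPM in CD4lo, and 183 and 200 CPM in CD4hi and DP. The 5 measured of 6 macrophage markers summed to 9.95 and 12.4 CPM in WT CD4 and to between 25.1 and 129 CPM elsewhere, and the 2 measured of 5 gamma delta T cell markers to 72.2 and 76.2 CPM in CD4lo and at most 2.68 CPM elsewhere. The 8 B cell markers summed to 501 and 519 CPM in WT CD8 and 413 and 456 CPM in DP, where 7 and 6 of them were called higher than in WT CD4, and to between 225 and 305 CPM in the other groups. The 5 NK cell markers summed to 53.9 and 62.1 CPM in CD4lo, where 4 were called higher than in WT CD4, and to at most 8.92 CPM elsewhere. Their part in the ribosomal protein levels was not tested.

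**Figure D1:**
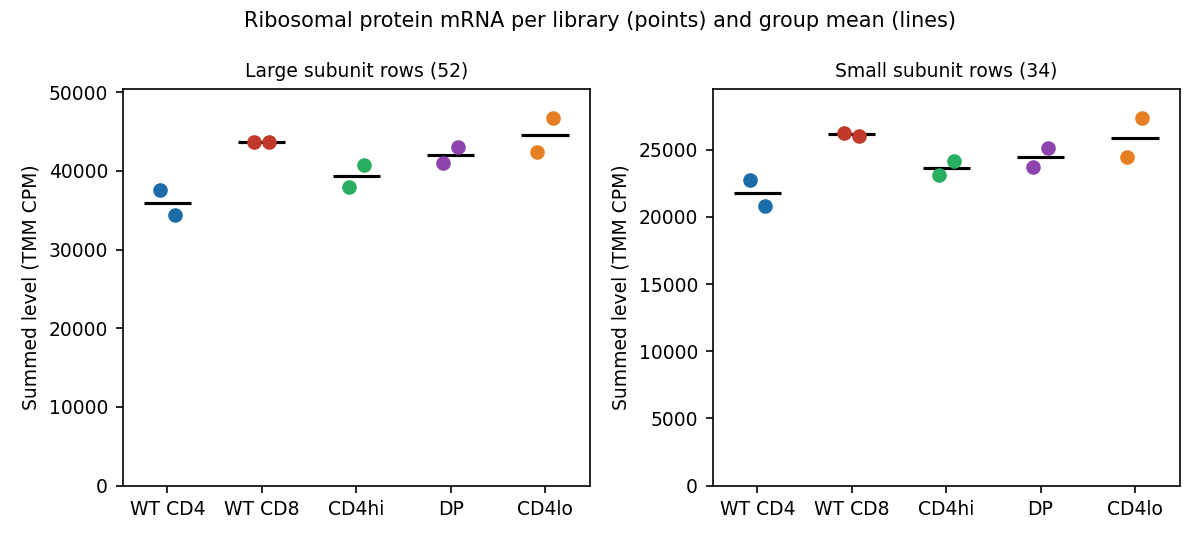
Summed TMM-scaled level in CPM of the 52 large subunit rows (left) and the 34 small subunit rows (right), with a point per library and a line at each group's mean. WT CD4 libraries lie lowest in both panels, and the 2 CD4lo libraries lie furthest apart.

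Of the 81 tested genes, 56 differed among the 5 groups, 69.1% against 25.8% of all genes tested. The mean was lowest in WT CD4 for 58 genes, in CD4hi for 19 and in DP for 4, and highest in CD4lo for 43, in WT CD8 for 29, in WT CD4 for 5 and in DP for 4. The smallest p-values belonged to Rpl29, Rps27, Rpl13a, Rpl4 and Rpl23a, with edgeR adjusted p from 7.55e-08 to 4.2e-05. Replicates also moved together across these genes. In CD4lo, 69 of the 81 were higher in replicate 2 than in replicate 1, with a median log2 difference of 0.15, and in WT CD4, 65 were lower in replicate 2, with a median of -0.14.

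Against WT CD4, the called genes were nearly all higher, and a small group of exceptions was lower. In WT CD8 cells 45 of the 81 genes rose and 4 fell, where 21.7% of all genes tested were called, 11.1% higher and 10.6% lower. In CD4hi cells 26 rose and 4 fell, where 16.8% of all genes were called, 10.4% higher and 6.43% lower. DP cells had 36 that rose and 4 that fell, where 19.1% were called, 11.1% higher and 8.06% lower. CD4lo cells had 52 that rose and 3 that fell, where 15.8% were called, 8.82% higher and 7.02% lower. The median log2 fold change over the 81 genes was 0.15 (CD4hi), 0.20 (DP), 0.28 (WT CD8) and 0.32 (CD4lo), while that over all genes tested lay between -0.03 and 0.00 in the same comparisons. These 4 comparisons share the WT CD4 libraries. Without the pair of libraries that stood apart, the medians over these genes were 0.13 (CD4hi), 0.14 (DP), 0.21 (WT CD8) and 0.26 (CD4lo). Those over all genes tested then lay between 0.00 and 0.01. Single libraries also moved the medians. With 1 library left out they ran from 0.21 to 0.35 (WT CD8), 0.07 to 0.22 (CD4hi), 0.14 to 0.27 (DP) and 0.24 to 0.41 (CD4lo). Fewer of all genes tested were called in each of these fits, so a lower count of ribosomal protein genes there was not theirs alone.

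The calls fell on both subunits. In CD4lo against WT CD4, 33 of 49 large subunit genes and 19 of 32 small subunit genes rose, and in WT CD8 the numbers were 27 of 49 and 18 of 32. Genes were also split by the start motifs, as a description without a test. Median log2 fold changes of the 35 genes with a run and the 26 without were 0.28 and 0.23 (WT CD8), 0.15 and 0.14 (CD4hi), 0.20 and 0.16 (DP), and 0.29 and 0.29 (CD4lo). Those of the 35 and of the 26 that rose numbered 19 and 13 (WT CD8), 13 and 5 (CD4hi), 16 and 8 (DP), and 24 and 14 (CD4lo). For the 42 genes with CTTCCG and the 19 without, the medians were 0.30 and 0.19 (WT CD8), 0.17 and 0.037 (CD4hi), 0.21 and 0.13 (DP), and 0.33 and 0.27 (CD4lo).

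**Figure D2:**
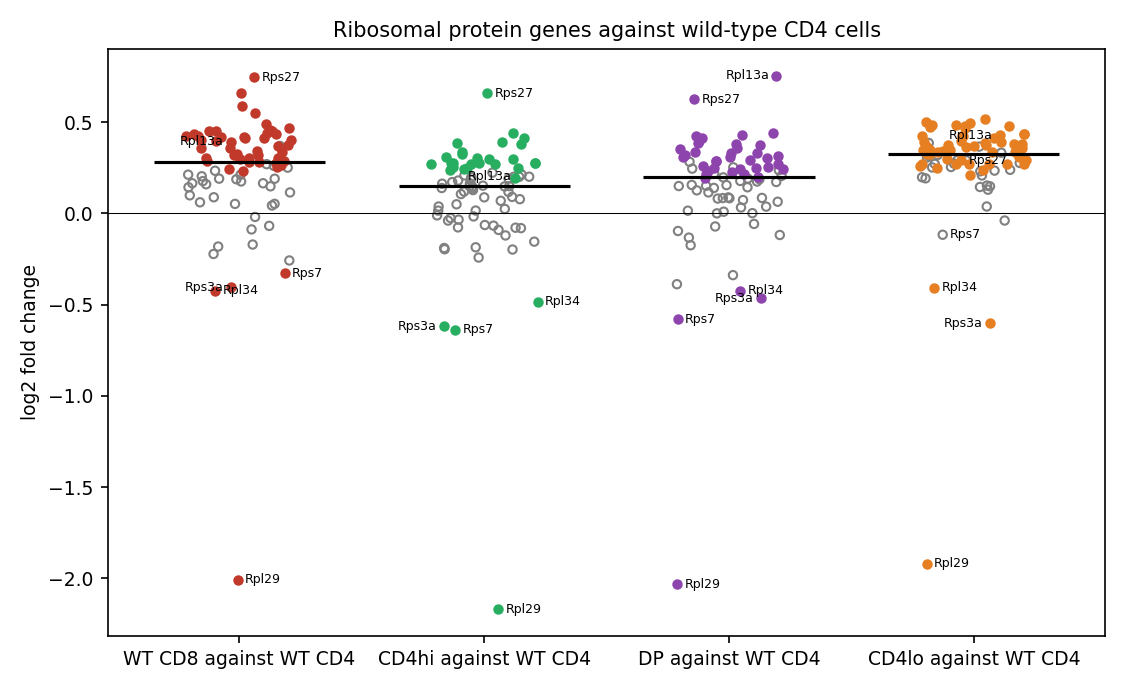
The log2 fold change of each of the 81 tested ribosomal protein genes against WT CD4, by group; filled points are called, open points are not, and lines mark medians. Medians run from 0.15 in CD4hi to 0.32 in CD4lo, and Rpl29 lies near -2 in all 4 comparisons.

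Exon length bears on the 4 comparisons with WT CD4. When each library was given an offset fitted to its trend of level with exon length, the genes called fell to 27 higher and 3 lower (WT CD8), 1 and 4 (CD4hi), 3 and 6 (DP), and 12 and 3 (CD4lo). The median log2 fold change was then 0.26 in WT CD8 and 0.26 in CD4lo, but 0.03 in CD4hi and 0.07 in DP. Over all genes in that fit the medians were 0.06 (WT CD8), 0.03 (CD4lo), -0.04 (CD4hi) and -0.01 (DP). Calls over all genes went from 2651 to 2122 (WT CD8), 2048 to 1334 (CD4hi), 2332 to 1657 (DP) and 1931 to 1340 (CD4lo). The offset fit held the 10993 tested genes with a known length. Tested genes other than ribosomal protein genes were grouped by exon length. Those with at most 1000 bases were called higher than WT CD4 in 18.4% (WT CD8), 19.8% (CD4hi), 22.1% (DP) and 9.70% (CD4lo) of cases. They were called lower in 10.8%, 7.42%, 7.56% and 3.99%, with median log2 fold changes of -0.02, 0.005, 0.04 and 0.09. Pseudogene rows, described below, were kept among these genes, and their part in the shares was not tested. Exon length here joins the exons of all annotated transcripts of a gene. By their reference transcript 58 of the 81 ribosomal protein genes have under 1000 bases, but by exon length 11 of the 81 have at most 1000. Of the others 34 have up to 2000 and 30 up to 4000 bases, where 9.43%, 9.91%, 12.7% and 8.66%, and 10.0%, 10.0%, 11% and 8.90%, of other genes were called higher in the same order of groups. Those with over 4000 bases, which include 6 of the 81, were called higher in 10.7%, 9.42%, 9.30% and 8.11%. The part of length-dependent recovery of RNA in the rise was not tested beyond this offset.

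**Figure D3:**
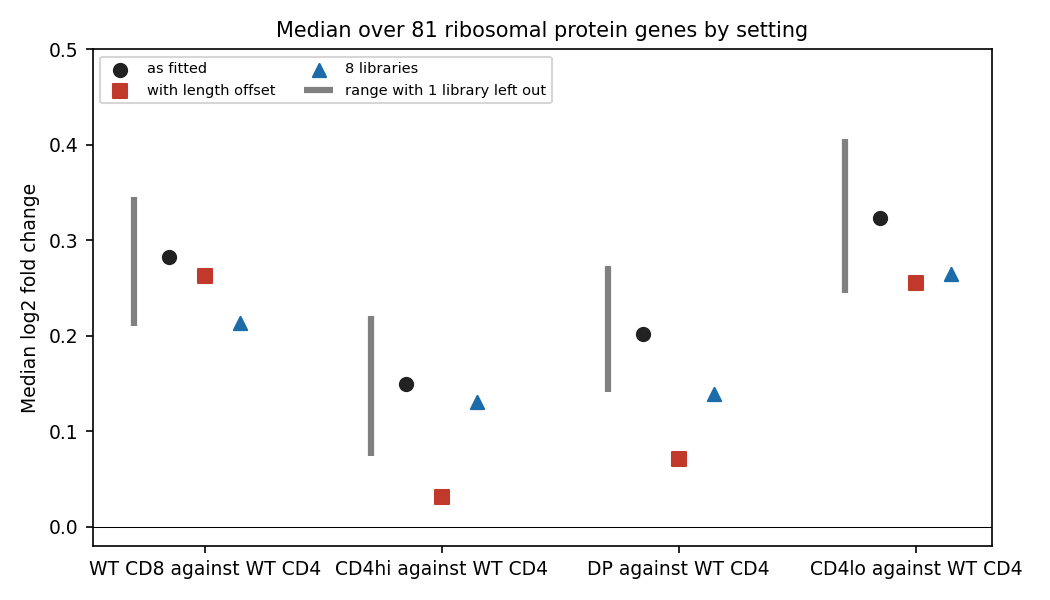
Median log2 fold change against WT CD4 over the 81 tested genes, as fitted with 10 libraries (circles), with the exon length offset (squares) and with the 8 libraries that had fewer detected genes (triangles); grey bars give the range with 1 library left out. The offset brings CD4hi and DP to 0.03 and 0.07, and leaves WT CD8 and CD4lo at 0.26.

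The stalk and its base are where elongation factors bind, and of their 3 proteins Rplp2 alone was called higher than WT CD4 in all 4 groups. Rplp0, the base of the stalk, stood at 1383 and 1225 CPM in WT CD4 and between 1396 and 1673 CPM in the other 8 libraries. Rplp2 stood at 1527 and 1456 CPM in WT CD4 and between 1642 and 2014 CPM elsewhere. For both genes every other library lay above both WT CD4 libraries. The log2 fold changes of Rplp2 ran from 0.25 to 0.40, while those of Rplp0, from 0.17 to 0.23, were not called (edgeR adjusted p from 0.0643 to 0.174). With the length offset the Rplp2 calls in CD4hi, DP and CD4lo were lost, and that in WT CD8 was kept. Rplp1 had the highest level of all members per length, 3236 CPM per kb of transcript, and ranged from 1164 to 1593 CPM in WT CD4 alone, a spread that overlapped CD4hi and CD4lo. It was called higher in DP (log2 fold change 0.41 ± 0.13 SE, edgeR adjusted p = 0.0451), a call lost without the pair of libraries that stood apart, with DESeq2 (adjusted p = 0.231), with the replicate block (0.0712), with the length offset (0.835), and without WT CD4 replicate 2 (0.296) or either DP library (0.112 and 0.192). Rpsa, a small subunit protein also known as a laminin receptor, stood at 2382 and 2383 CPM in WT CD4 and between 2698 and 3092 CPM in the other libraries, with no overlap. Its calls in CD4hi, DP and CD4lo against WT CD4 were lost with the length offset.

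Levels per kb of transcript spanned from 17.8 CPM for Rps27l to 3236 CPM for Rplp1, although the middle of the set was narrow, with quartiles of 639 and 1202 CPM per kb. High levels were also those of Rpl26 with 2761, Rpl13a with 2301 and Rps27 with 1962 CPM per kb. The lowest after Rps27l were Rpl7l1 with 26.9, Rpl22l1 with 88.8, Rpl15 with 147 and Rpl36al with 174 CPM per kb. Of these 5 low genes, 4 are paralogs of another member.

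Among large subunit proteins, Rpl4, a core protein with a loop that reaches into the exit tunnel, stood at 1559 and 1522 CPM in WT CD4 and at 2291 and 2332 CPM in WT CD8. It lay between 1918 and 2191 CPM in the OB11/OB11 libraries, so neither wild-type group overlapped them. Its log2 fold change against WT CD4 was 0.59 ± 0.06 in WT CD8 (edgeR adjusted p = 2.48e-06) and 0.39 ± 0.06 in CD4hi. Rpl10, which joins late in the maturation of the large subunit, stood at 406 and 478 CPM in WT CD4, 692 and 703 CPM in WT CD8, and between 558 and 625 CPM in OB11/OB11 cells. It too showed 3 levels without overlap, and CD4hi was lower than WT CD8 by both genes' tests (log2 fold changes of -0.27 for Rpl10 and -0.19 for Rpl4, edgeR adjusted p = 0.045 and 0.0412), calls that were lost without the libraries that stood apart.

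Rpl13a, a large subunit protein also known as part of the GAIT complex that represses inflammatory mRNAs, was the exception to the order of groups. It stood at 1969 and 1742 CPM in WT CD4, 2125 and 2138 CPM in CD4hi, 2321 and 2550 CPM in WT CD8, 2405 and 2586 CPM in CD4lo, and 3038 and 3216 CPM in DP. Both DP libraries were the highest of the 10, and CD4hi overlapped no other group. Rpl13a was the 1 gene of the 81 that differed between DP and CD4hi, where 1.62% of all genes were called, 0.763% higher and 0.861% lower (log2 fold change 0.55 ± 0.07, edgeR adjusted p = 0.000298); it was also higher in DP than in WT CD8 (0.36 ± 0.07) and lower in CD4lo than in DP (-0.33 ± 0.07). The last 2 calls were lost with the exon length offset (edgeR adjusted p = 0.262 and 0.204) and without DP replicate 2 (0.129 and 0.194). The first of them was also lost without WT CD8 replicate 1 (0.098) and the second without CD4lo replicate 1 (0.115). The gene (chr7:45125558-45128761, minus strand, mm10) holds 4 genes for small nucleolar RNAs in its span. In DP the macrophage marker list summed to 118 and 129 CPM, against 9.95 to 32.4 CPM in the other libraries, and the B cell list to 413 and 456 CPM, against 225 to 305 CPM outside DP and WT CD8; their part in the Rpl13a difference was not tested.

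Rps27, a small subunit protein with a zinc finger, was split between the groups in another way. It stood at 485 and 479 CPM in WT CD4, 564 and 617 CPM in CD4lo, 714 and 774 CPM in DP, 755 and 765 CPM in CD4hi, and 807 and 809 CPM in WT CD8. WT CD4 and CD4lo lay below all other libraries, and these are the groups whose titles carry the L. The log2 fold change was 0.75 ± 0.07 in WT CD8 against WT CD4 (edgeR adjusted p = 1.12e-06) and -0.37 ± 0.07 in CD4lo against CD4hi (0.00263). The latter call was lost with the exon length offset (edgeR adjusted p = 0.253), without CD4hi replicate 2 (0.064) and without CD4lo replicate 1 (0.0631). Rps27 (chr3:90212522-90213651, minus strand, mm10) lies 0.818 Mb from Zbtb7b on chromosome 3. Its paralog Rps27l, known as a p53 target, stood between 6.92 and 11.9 CPM in all libraries and was called in none of the 4 comparisons with WT CD4.

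The genes called lower than in WT CD4 were Rpl29, Rpl34 and Rps3a in every other group, and Rps7 in all of them but CD4lo. Rpl29, a large subunit protein on the surface of the ribosome, stood at 621 and 591 CPM in WT CD4 and between 127 and 191 CPM in the other 8 libraries, with a wide gap between them. Its log2 fold changes against WT CD4 were -2.01 (WT CD8), -2.17 (CD4hi), -2.03 (DP) and -1.92 (CD4lo), each ± 0.16 SE, with edgeR adjusted p from 2.96e-07 to 7.43e-07. The wild-type CD8 cells shared the low level of the OB11/OB11 cells.

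Pseudogene rows moved with Rpl29 in the opposite direction. The 34 rows with counts whose transcripts matched the Rpl29 coding sequence (at least 90% identity over at least 50% of it) summed to 15.4 ± 0.895 CPM (SD, n = 2) in WT CD4 and to between 195 and 265 CPM in every other library. Most of this was 1 processed pseudogene, Gm13841 (chr5:115801677-115802159, minus strand), with 4.09 and 4.45 CPM in WT CD4 and between 187 and 252 CPM elsewhere. Gene and matched rows together came to 637 and 606 CPM in WT CD4 and to between 367 and 418 CPM in the other libraries, so the sum stayed lower outside WT CD4, by log2 fold changes of -0.64 to -0.73. The counting can divide reads between such near-identical rows, so the level of the Rpl29 gene itself is uncertain.

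Rpl34, a large subunit protein, stood at 681 and 609 CPM in WT CD4 and between 437 and 516 CPM in the other libraries, with log2 fold changes from -0.41 to -0.48. Its matched rows, mainly Rpl34-ps1 (chr6:71124610-71124963, plus strand), stood at 8.17 and 6.25 CPM in WT CD4 and between 143 and 204 CPM elsewhere. The sum of both was 689 and 615 CPM in WT CD4 and between 600 and 695 CPM in the other libraries, which overlap throughout. The fall of the Rpl34 row was therefore not present in the sum, where the log2 fold changes lay between -0.03 and 0.06 and none was called.

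Rps3a and Rps7 fell without such a change in pseudogene rows. Rps3a, a small subunit protein near the mRNA exit, stood at 1044 and 1098 CPM in WT CD4 and between 668 and 874 CPM in the other libraries, and its log2 fold change ran from -0.41 ± 0.08 in WT CD8 to -0.62 ± 0.08 in CD4hi. Rps7, a small subunit protein that also binds Mdm2, stood at 979 and 828 CPM in WT CD4, 759 and 907 CPM in CD4lo, 748 and 690 CPM in WT CD8, and between 577 and 616 CPM in CD4hi and DP. WT CD4 and CD4lo overlapped for Rps7, and CD4hi and DP lay below all other libraries. All libraries whose titles carry the L, those of WT CD4 and CD4lo, lay above all others for Rps7. The mark differs in the comparisons of CD4lo with CD4hi and with DP. Rps7 was higher in CD4lo than in CD4hi (0.52 ± 0.09, edgeR adjusted p = 0.00206) and than in DP (0.46 ± 0.09, 0.00515), the latter lost without CD4lo replicate 2 (0.0837) or DP replicate 1 (0.0679). Adding matched rows moved none of these values for Rps3a or Rps7 by more than 0.02. The Rps7 fall in WT CD8 against WT CD4 (-0.33 ± 0.09, edgeR adjusted p = 0.0172) was not called with the length offset (0.0849). That fall was -0.37 without WT CD8 replicate 1, -0.26 without WT CD8 replicate 2 and -0.19 without WT CD4 replicate 1.

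**Figure D4:**
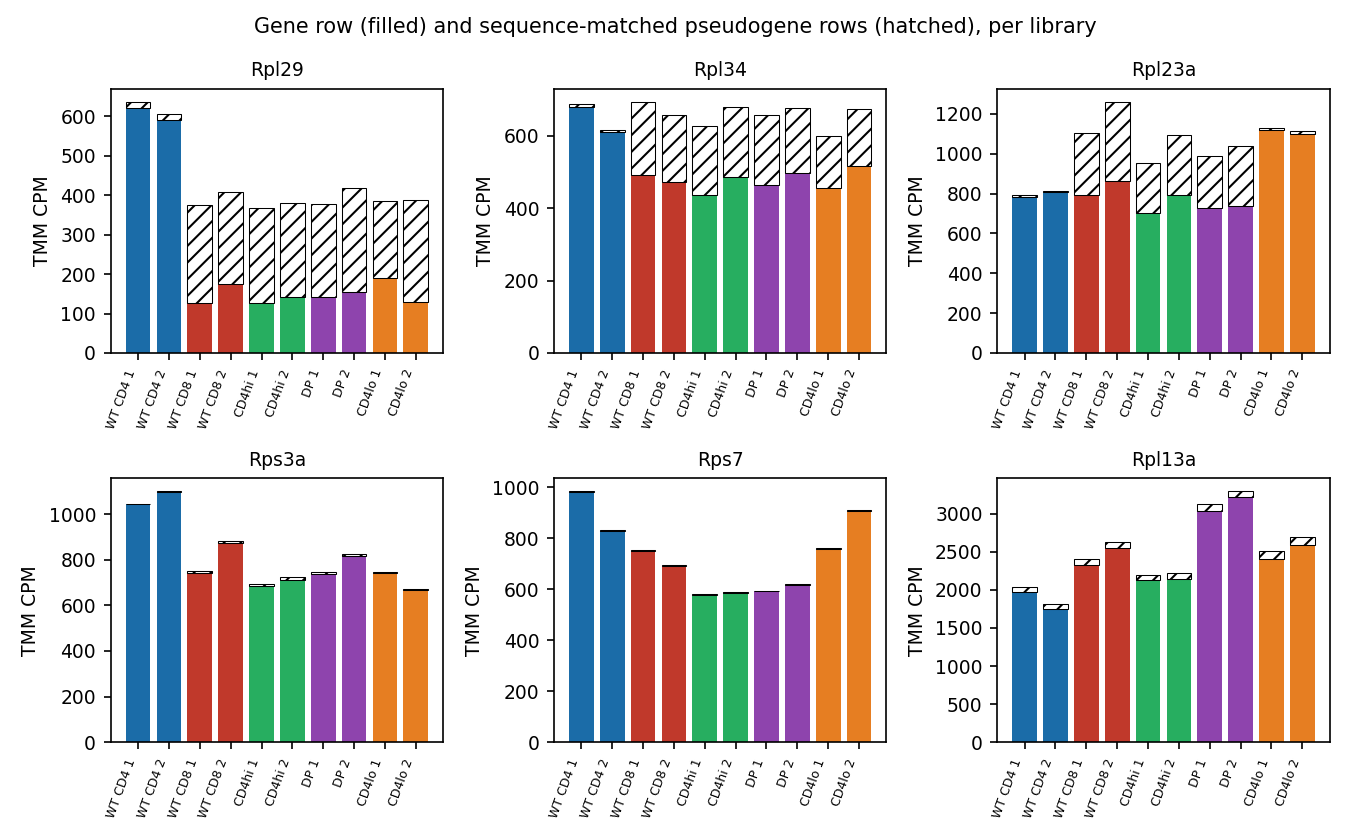
Level in CPM of 6 ribosomal protein genes in each library (filled bars, coloured by group) with the summed level of their sequence-matched pseudogene rows stacked on top (hatched). The matched rows of Rpl29 and Rpl34 are near 0 in WT CD4, those of Rpl23a are near 0 in WT CD4 and CD4lo, and Rps3a, Rps7 and Rpl13a have few.

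Rpl23a, which sits beside the exit tunnel, stood at 783 and 807 CPM in WT CD4, 1117 and 1099 CPM in CD4lo, and between 702 and 865 CPM in the other groups. Only CD4lo stood apart, by log2 fold changes of 0.48 against WT CD4, 0.57 against CD4hi, 0.60 against DP and 0.42 against WT CD8, all with 0.07 SE and called by edgeR. Its matched rows, mainly Gm10132 (chr14:77251847-77252314, minus strand), summed to between 8.34 and 13.5 CPM in the WT CD4 and CD4lo libraries and to between 254 and 398 CPM in the other groups. With these rows added, Rpl23a in CD4lo differed from WT CD4 by 0.48 (edgeR adjusted p = 0.00035), while the differences from CD4hi, DP and WT CD8 were no longer called, and that from WT CD8 became -0.08 (0.717). With the length offset the difference from WT CD4 was not called (0.0522), and without WT CD8 replicate 1 that from WT CD8 was not (0.058).

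Many pseudogene rows differed with the L in the titles. A total of 54 matched rows reached at least 20 CPM in any library, a filter that a row high in a single group can pass. Of these, 16 were lower in all 4 libraries with the L than in all 6 others, 11 of them by at least 2-fold. Another 9 were higher in all 4, 7 of them by at least 2-fold. Of 80 ribosomal protein genes at that level, 1 was lower and 1 was higher in this way, and none by 2-fold. Between libraries alike in the mark few matched rows of the 168 tested were called, 15 higher and 1 lower in CD4lo against WT CD4 and 1 lower in CD4hi against WT CD8. By edgeR 0 were called in DP against CD4hi and 0 in DP against WT CD8, where 5 and 6 had an unadjusted p under 0.05. In CD4lo against CD4hi, where the mark differs, 24 were higher and 53 were lower. What the L stands for is not given in the sources used here.

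Among OB11/OB11 populations few ribosomal protein genes differed, although in CD4lo the share called was above that of all genes. In CD4lo against CD4hi 9 rose and 1 fell, where 7.03% of all genes were called, 2.76% higher and 4.27% lower. In CD4lo against DP 9 rose and 2 fell, where 6.19% were called, 2.55% higher and 3.64% lower. The comparisons with WT CD8 gave few calls as well. CD4hi had 4 genes that fell and 0 that rose by edgeR or DESeq2, with 1 higher at an unadjusted p under 0.05 in edgeR (9.92% of all genes called, 6.22% higher and 3.69% lower). DP had 2 that rose and 3 that fell (6.85% called, 4.57% higher and 2.28% lower), and CD4lo had 3 that rose and 1 that fell (5.49% called, 3.41% higher and 2.08% lower). The share of the 81 genes called was 12.3% in CD4lo against CD4hi and 13.6% in CD4lo against DP, above the 7.03% and 6.19% of all genes. It was from 1.23% to 6.17% in the other 4 comparisons, in each below that of all genes. Although few genes were called, 77 of the 81 had a lower estimate in CD4hi than in WT CD8, with a median log2 fold change of -0.14, and 74 had a higher one in CD4lo than in CD4hi, with a median of 0.19. Single libraries moved several of these counts. With 1 left out, fewer of all genes tested were also called in CD4lo against CD4hi and DP, and in CD4hi and DP against WT CD8. In CD4lo against CD4hi 3 genes were called without CD4lo replicate 2, the library with the highest sum, 3 without CD4hi replicate 1 and 19 without CD4lo replicate 1. In CD4lo against DP 3 were called without CD4lo replicate 2 or DP replicate 1, and 4 without DP replicate 2. Against WT CD8, CD4hi had 0 called without either WT CD8 library or its own replicate 1 and 12 without its replicate 2, and DP had 0 or 1 without any 1 of its 4 libraries. CD4lo had 2 without its replicate 2 and 1 without WT CD8 replicate 1.

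The paralogs Rpl22l1 and Rpl36al were called higher in CD4lo than in CD4hi, calls that other settings or single libraries end. Rpl22l1, a paralog of Rpl22 with which it has opposed roles in T cell development, stood at 57.1 and 71.3 CPM in CD4lo, 60.8 and 42.5 CPM in WT CD4, and between 38.4 and 46.5 CPM in the other groups. CD4lo lay above all libraries but 1 of WT CD4, with log2 fold changes of 0.50 ± 0.14 against CD4hi (edgeR adjusted p = 0.0492) and 0.70 ± 0.14 against DP (0.00701). The call against CD4hi was lost with the replicate block (0.0797), with DESeq2 (0.0918), with sequence-matched rows added (0.077), and without CD4lo replicate 2 (0.284) or either CD4hi library (0.115 and 0.141). That against DP was lost without CD4lo replicate 2 (0.0728) or DP replicate 1 (0.0577). Rpl22 itself ranged from 443 to 689 CPM and was called in none of the 4 comparisons with WT CD4. Rpl36al, a paralog of Rpl36a, stood at 100 and 139 CPM in CD4lo, 104 and 78.6 CPM in WT CD4, and between 77.1 and 86.7 CPM in the other groups, overlapping WT CD4 alone, with a log2 fold change of 0.58 ± 0.14 against CD4hi (edgeR adjusted p = 0.0195), lost without CD4lo replicate 2 (0.189) or CD4hi replicate 1 (0.103). Rpl7l1, a paralog of Rpl7 that acts in early ribosome assembly, ranged from 57.8 to 77.7 CPM. Rpl41, the shortest ribosomal protein, stood at 576 and 633 CPM in CD4lo against 436 and 466 CPM in WT CD8 (0.42 ± 0.07, edgeR adjusted p = 0.00129), a call lost with the length offset (0.064) and without CD4lo replicate 2 (0.0501) or WT CD8 replicate 1 (0.0547).

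**Figure D5:**
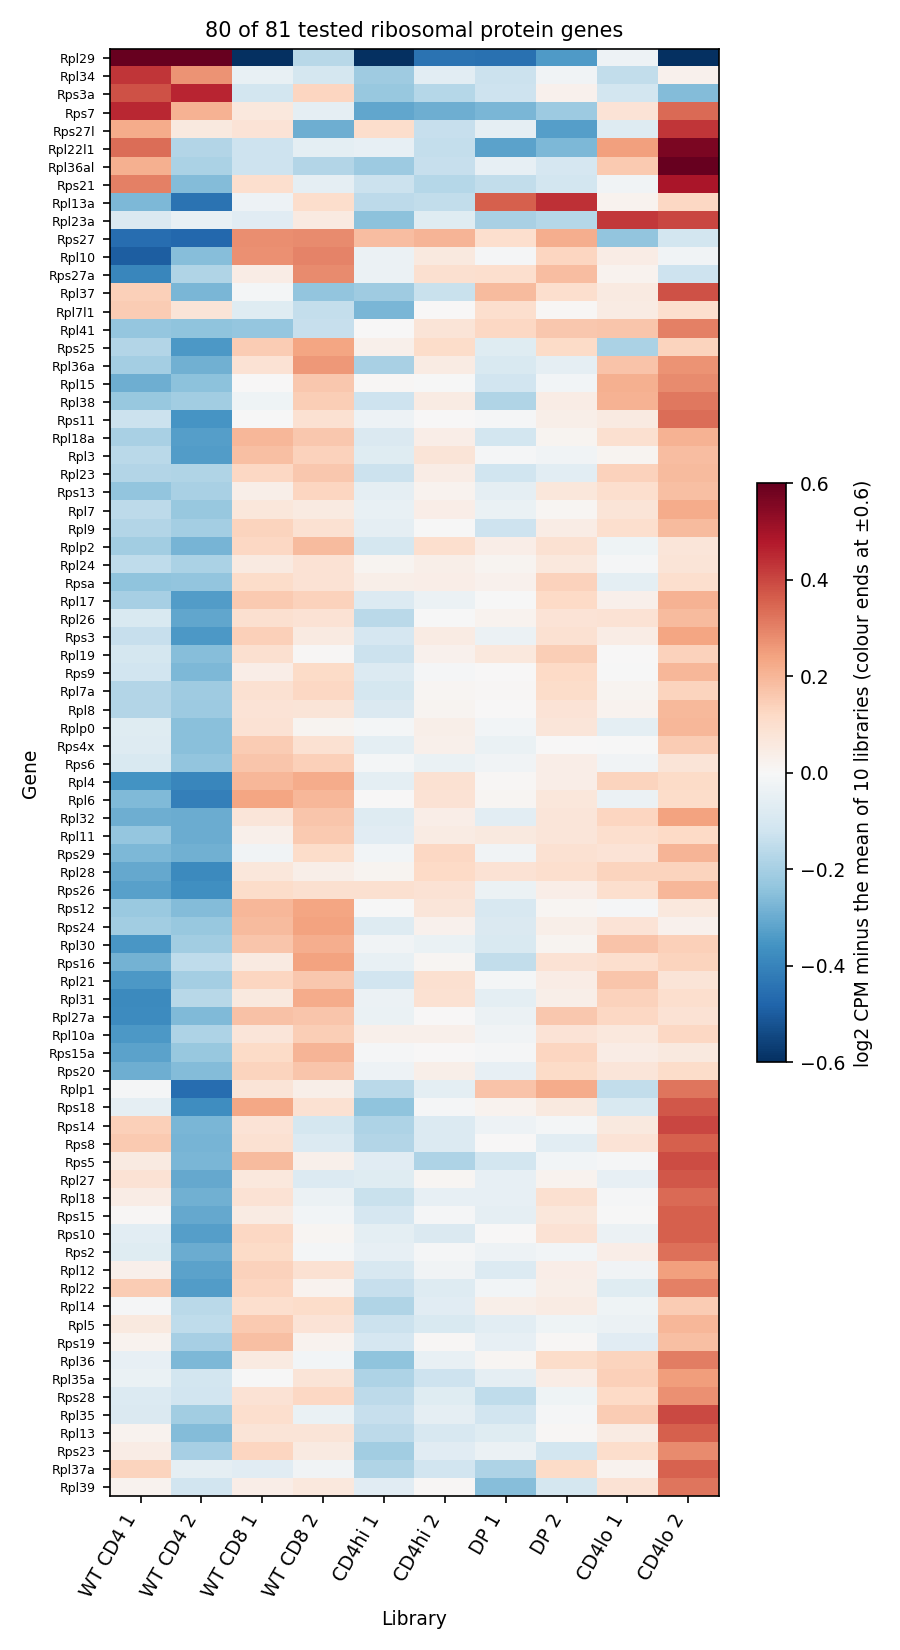
Level of 80 of the 81 tested genes (rows, ordered by average-linkage clustering) in the 10 libraries (columns), as log2 CPM minus the gene's mean over all libraries; red is higher, blue is lower, and the colour ends at ±0.6. Most rows are blue in both WT CD4 libraries, Rpl29, Rpl34 and Rps3a are red there, and CD4lo replicate 2 is red in most rows.

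Other genes of translation were read from lists chosen with earlier results of these data known. Of 18 elongation factors and other mRNAs with terminal pyrimidine motifs, 12 rose and 1 fell in WT CD8 against WT CD4, and 10 (CD4hi), 8 (DP) and 14 (CD4lo) rose with none falling, with median log2 fold changes from 0.23 to 0.35. The shares called were 72.2%, 55.6%, 44.4% and 77.8%, above the 21.7%, 16.8%, 19.1% and 15.8% of all genes. Eef1a1, which brings tRNA to the ribosome, rose by 0.57 ± 0.06 in WT CD8 (edgeR adjusted p = 1.01e-05) and by 0.43 ± 0.06 in CD4lo (0.000183). Pabpc1, the poly(A)-binding protein, rose by 0.53 ± 0.06 in WT CD8 and by 0.44 ± 0.06 in CD4hi. Fau, whose product is cleaved to give a small subunit protein, rose in all 4 comparisons by 0.24 to 0.37. Of 32 initiation factors, 5, 3, 5 and 4 rose in WT CD8, CD4hi, DP and CD4lo and none fell, with medians of all 32 between 0.00 and 0.01. The shares called, 15.6%, 9.38%, 15.6% and 12.5%, were below those of all genes. Eif1, which guards start codon choice, rose by 0.34 to 0.55.

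Genes that make ribosomes were read from such lists too. Of 68 genes of rRNA processing and assembly, those that rose and fell numbered 9 and 1 (WT CD8), 1 and 3 (CD4hi), 3 and 5 (DP), and 3 and 1 (CD4lo), or 14.7%, 5.88%, 11.8% and 5.88% called, shares below those of all genes. Polr1a, the largest subunit of RNA polymerase I, fell in all 4 comparisons, by log2 fold changes of -0.73, -0.81, -0.76 and -0.55. For the lists that follow, the shares of all genes tested that were called in these 4 comparisons were 21.7% (WT CD8), 16.8% (CD4hi), 19.1% (DP) and 15.8% (CD4lo). Of 76 mitochondrial ribosomal protein genes, at most 7 were called in any of the 4, with Mrpl35 at -1.49, -1.41, -1.46 and -0.83 and Mrpl40 at 0.62, 0.65, 0.82 and 0.67. Of 28 Myc and mTOR pathway genes, at most 7 were called, and Ddit4, an inhibitor of mTOR, was lower by log2 fold changes of -1.09 (WT CD8), -0.67 (CD4hi), -0.81 (DP) and -0.91 (CD4lo). Others of this list were called in both directions. Rps6kb1 was lower in CD4hi (-0.40) and DP (-0.31), Mxd4 in WT CD8 (-0.59) and CD4lo (-0.74), and Sesn3 in WT CD8 (-0.42). Mxd1 was higher in CD4hi and CD4lo (0.59 in each). The part of mTOR signalling in the ribosomal protein levels was not tested. Of 9 tested p53 targets and regulators, 2 rose and 2 fell in WT CD8, and 1, 2 and 2 fell in CD4hi, DP and CD4lo with none rising. Mdm4, an inhibitor of p53, rose by 0.26 in WT CD8 (edgeR adjusted p = 0.0358). Trp53inp1 was lower by -0.57 in WT CD8, -0.37 in DP and -0.53 in CD4lo, and Bbc3, a promoter of apoptosis, was lower in all 3 OB11/OB11 groups, by -1.18 to -1.64.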

How the data were processed

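Raw counts per gene symbol were deposited for 10 libraries; the authors used TopHat2, HTSeq and mm10 per the submitters' processing notes, without versions. Per the labels' protocols, 10 ng of total RNA entered a directional library kit that removes ribosomal cDNA. Annotation, strand setting and trimming are not given in the sources used here, so reads of overlapping genes, antisense genes and near-identical copies may be shared. Groups came from sample titles. In R 4.3.3, edgeR 4.0.16 kept 12193 genes (filterByExpr), scaled them by TMM and fitted 1 quasi-likelihood model of 5 groups with 5 residual degrees of freedom; p-values were two-sided and Benjamini-Hochberg adjusted over all genes tested. An exact permutation test of 2 against 2 libraries cannot go below p = 0.333 and was not run. CPM are TMM-scaled; fold changes are log2 with SE. DESeq2 1.42.0 and the settings named in the closing section were alternatives. The model was tested on simulated counts. Gene positions and lengths came from GENCODE M21 (mm10), start windows from RefSeq; CPM per kb used 1 reference transcript per gene. Pseudogene rows were matched to coding sequences by BLAST.

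The genes and lists were chosen with earlier results of these data known. Named genes were the stalk proteins, Rpsa, paralogs, up to 6 called genes per direction and comparison, the 5 smallest p-values across groups, the 5 highest and 5 lowest per kb, and up to 3 called genes per list and comparison; a selection of them is given, and 1 gene is counted in the totals but not reported here by itself. Counts have no molecular identifiers, so their number limits precision for counting error only.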

Additional observations from a re-analysis of the deposited data

How the results depend on the processing

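Counts of ribosomal protein genes called stayed within 1.5 times under other scalings (RLE, or TMM without these genes, mitochondrial genes and the top symbol) and with pseudogene rows added. With the exon length offset, 24 differed among groups, 30 in WT CD8, 5 in CD4hi, 9 in DP and 15 in CD4lo against WT CD4, 4 in CD4lo against DP, and 1, 0 and 2 in CD4hi, DP and CD4lo against WT CD8; fitted without these genes, the offset gave the same numbers except 5 in CD4lo against DP. Against WT CD4, a fit of only the 4 libraries compared called 10 in CD4hi; it called 3 in DP against CD4hi, and 18 in CD4hi and 18 in DP against WT CD8. With no filter, 3 were called in DP against CD4hi, 31 in CD4lo against CD4hi, 19 in CD4lo against DP, 16 in CD4hi and 7 in CD4lo against WT CD8. DESeq2 called 10 in CD4hi and 8 in DP against WT CD8. With the 8 libraries of fewer detected genes, added after seeing the data as were the sequence-matched rows and the refitted offset, 6 were called in CD4lo against CD4hi, and 0, 11 and 7 in CD4hi, DP and CD4lo against WT CD8.

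With 1 library left out, the counts ran from 45 to 70 among groups, 31 to 63 (WT CD8), 10 to 26 (CD4hi), 14 to 43 (DP) and 32 to 71 (CD4lo) against WT CD4, 1 to 1 in DP against CD4hi, 3 to 19 in CD4lo against CD4hi, 3 to 10 in CD4lo against DP, and 0 to 12, 0 to 1 and 1 to 5 in CD4hi, DP and CD4lo against WT CD8. The lowest values against WT CD4 came without WT CD8 replicate 2, CD4hi replicate 2, DP replicate 2 and CD4lo replicate 2. Fewer of all genes tested were called in those fits too. In such fits the lone library is assumed to vary like the others. With named pseudogene rows added, Rpl34 changed sign against WT CD4, to 0.0258 (WT CD8) and 0.00574 (DP); with sequence-matched rows it was 0.0553 (WT CD8), 0.00523 (CD4hi) and 0.0344 (DP), and Rpl23a in CD4lo against WT CD8 was -0.0795. The cause of these changes was not tested, except that summing rows adds their reads by construction.

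Replicate numbers did not pair libraries, with correlations of deviations from -0.548 to 0.126 between same-numbered libraries of different groups. With the replicate block, 53 genes differed among groups (56 without it), 48, 30, 35 and 50 against WT CD4 in WT CD8, CD4hi, DP and CD4lo, and 1 in DP against CD4hi. With 2 libraries a group, changes under about the spread between libraries were not detectable.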
